A study of Homo sapiens with 4 samples.

Results

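ATP-binding cassette (ABC) transporters are the membrane proteins that use ATP to move drugs, lipids, conjugates and metal cofactors across membranes. Their messenger RNA was examined in MDA-MB-231, a cultured breast cancer line from a human tumour without hormone receptors, given the compound YW-LF for 24 h (n = 2 libraries) or the solvent DMSO (n = 2 libraries). The series title describes YW-LF as a derivative of ribociclib, which inhibits the cell cycle kinases CDK4 and CDK6, and no dose is given in the sources used. Both groups were the same line in the same serum-containing medium, and nothing in the labels states whether the libraries of a group came from separate cultures, so p-values describe only the spread between these libraries, which may be technical. Members were chosen by gene symbol alone: ABCA, ABCB, ABCC, ABCD, ABCE, ABCF or ABCG followed by a number. This gave 44 genes of 20263 in the count table, among them 10 assigned here to drug and conjugate efflux, 18 to lipid, sterol and bile salt transport, 3 to peroxisomes, 4 to mitochondria, 2 to lysosomes, 3 to channel regulation or other membrane roles, and 4 to translation.

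The family is named for a cassette that binds and hydrolyses ATP. Exporters couple that reaction to a change of shape that carries a substrate out of the cytosol, and ABCB1, ABCC1 and ABCG2 are known for lowering the amount of anticancer drug inside tumour cells. ABCA and ABCG proteins mostly move lipids and sterols, most ABCD proteins carry fatty acyl-CoA into peroxisomes, and several ABCB proteins sit in mitochondria. ABCE and ABCF proteins have the cassette but no membrane part, and act on ribosomes.

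Each library held 34774542 to 40218240 counts. The fit across 13816 genes kept 29 of the 44 members, and the other 15 had too few counts for the filter, with at most 34 counts in any library. YW-LF replicate 2 stood apart from YW-LF replicate 1 more than the DMSO libraries did from each other. Over the 29 tested members the median absolute log2 difference between libraries was 0.86 for the YW-LF pair and 0.26 for the DMSO pair, against 0.74 and 0.27 over all genes tested. The share of counts from mitochondrially encoded genes was 3.14% and 6.58% in YW-LF replicates 1 and 2, and 8.68% and 21.7% in DMSO replicates 1 and 2; its part in the results was not tested, but removing them left the counts of family members given below as they were. All 7 mesenchymal markers of the line were detected, and summed to 5464 to 9322 CPM in YW-LF and 9273 to 11840 CPM in DMSO. The 7 luminal markers, meant to be low or absent, were all detected too and summed to 42.3 to 85.7 CPM in YW-LF and 98.6 to 104 CPM in DMSO. Most of that was ERBB2, at 69.3 and 30.2 CPM in YW-LF and 71.9 and 64.3 CPM in DMSO. GATA3, a luminal transcription factor, had 3.08 and 4.01 CPM in YW-LF, against 9.03 and 21.4 CPM in DMSO (edgeR adjusted p = 0.142, DESeq2 adjusted p = 0.0096). EPCAM stood between 5.53 and 9.35 CPM over all 4 libraries, and CDH1, the epithelial cadherin, had at most 0.26 CPM (counts scaled by library size and edgeR's TMM factors) in any library. Of 14 markers of leukocytes, endothelium, hepatocytes and fibroblasts, 6 were at 0 in all libraries, and the leukocyte list summed to 0.097 to 0.98 CPM in YW-LF and 0.90 to 1.07 CPM in DMSO. The hepatocyte list summed to 1.21 to 2.07 CPM in YW-LF and 0.053 to 0.39 CPM in DMSO, with TTR at 0; ALB, which gave nearly all of the YW-LF sums, had 1.17 and 1.78 CPM with YW-LF, against 0.053 and 0.18 CPM with DMSO. The fibroblast list summed to 1.81 to 8.16 CPM in YW-LF and 9.64 to 9.68 CPM in DMSO, with COL1A2 and DCN at 0. The endothelial list summed to 0.29 to 0.74 CPM in YW-LF and 0.87 to 1.36 CPM in DMSO, with CDH5 at 0. The part of these lists in the results was not tested.

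No family member was called once p-values were adjusted across the whole table. The quasi-likelihood test of edgeR, adjusted by Benjamini-Hochberg at 0.05, called 0 of 29 members, as it called 0% of all genes tested. At an unadjusted p under 0.05 there were 2 members, both higher with YW-LF: ABCC9, a regulatory subunit of potassium channels, and ABCC2, a conjugate exporter. That is 6.9% of the tested members, where 20.5% of all genes passed the same line (11.5% higher and 9.01% lower). The YW-LF and DMSO libraries did not overlap in 12 members, 7 higher and 5 lower, or 41.4% of those tested against 55.8% of all genes (28% higher and 27.8% lower). Other scalings gave 11 to 14 such members. DESeq2, run as an alternative, called 1 of 30 members (ABCC9) and 10.3% of all genes. The median log2 fold change of YW-LF over DMSO was -0.04 over the tested members and 0.06 over all genes. By every one of these counts the share of the family that differed was at or under the background share. In bulk RNA, a change in the share of cells that express a gene and a change in RNA per cell cannot be told apart.

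**Figure D1:**
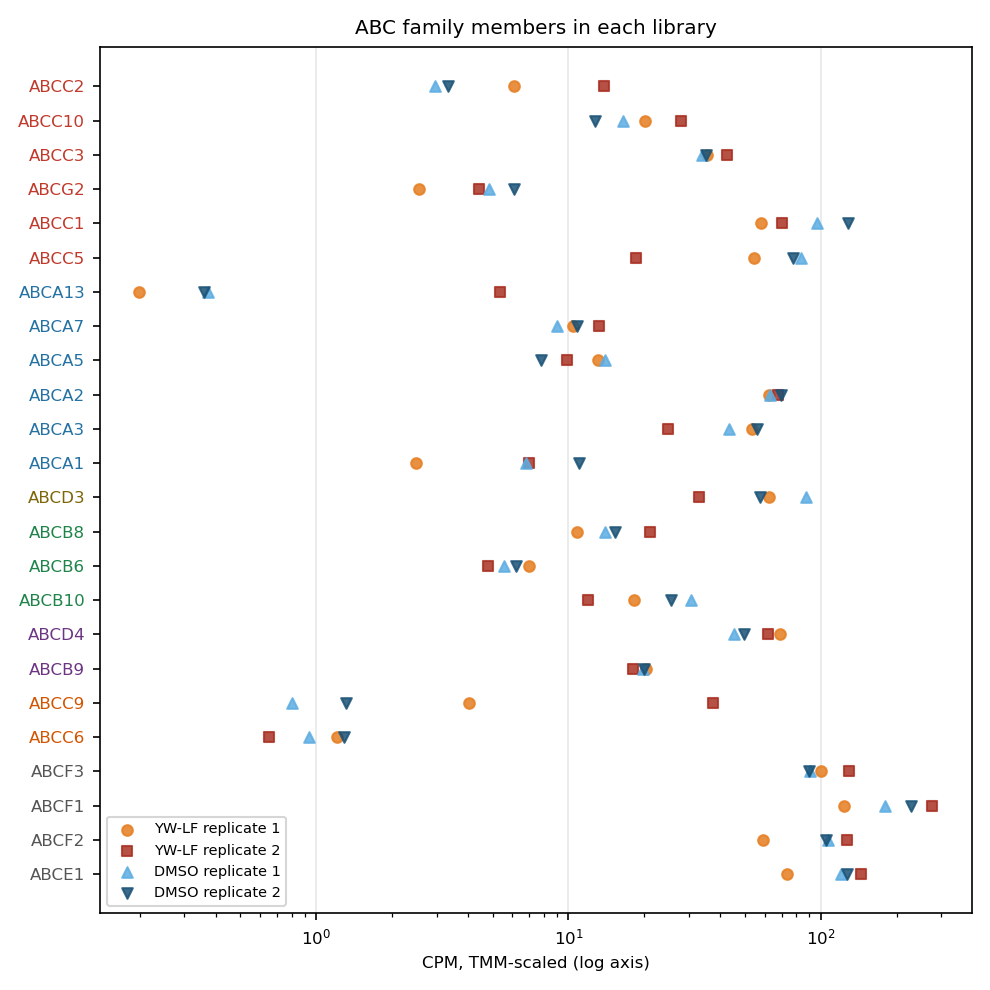
Level of 24 family members with a mean of at least 1 CPM, as TMM-scaled CPM on a log axis, with 1 marker for each library and gene names coloured by role. ABCC9 and ABCC2 have both YW-LF markers right of both DMSO markers, and ABCC1, ABCC5 and ABCB10 have both to the left; most other rows overlap.

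**Figure D2:**
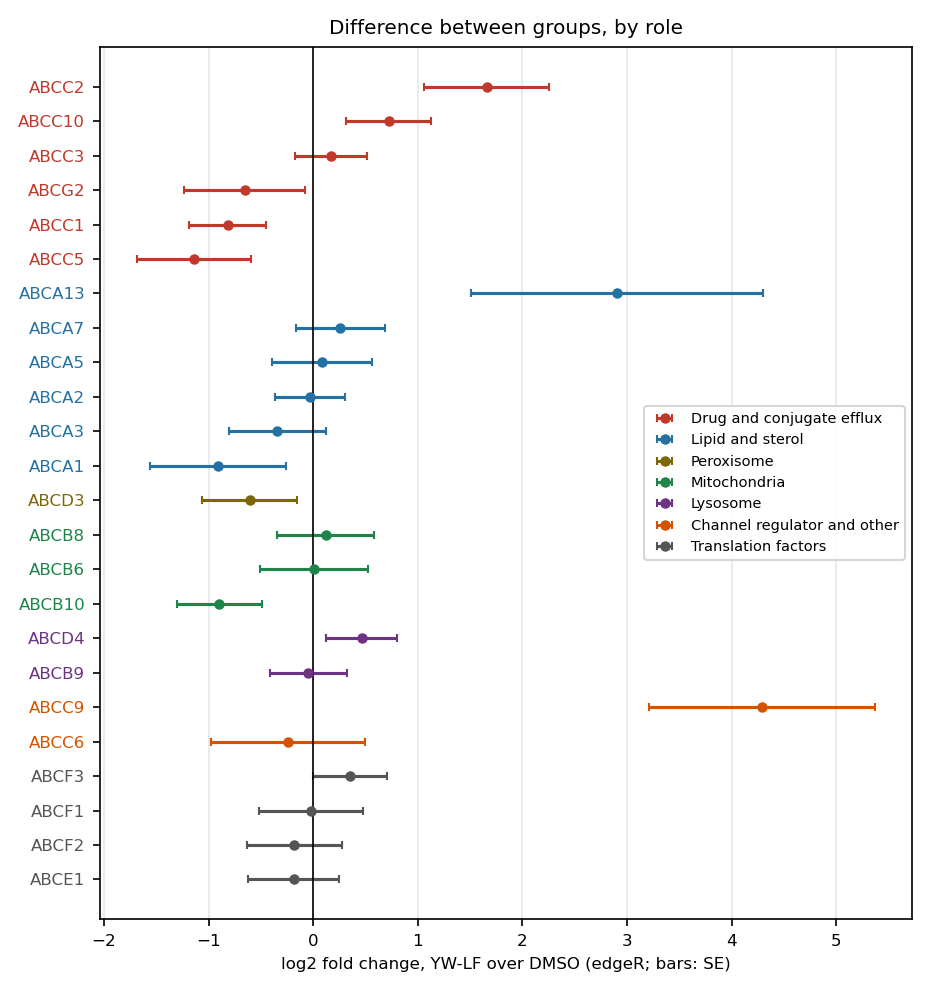
Log2 fold change of YW-LF over DMSO from edgeR for the same 24 members, grouped and coloured by role, with bars of 1 SE. ABCC9 at 4.29 lies farthest from 0, and the drug efflux members lie on both sides of it.

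The RefSeq promoter windows of 4 members are printed because these had the lowest p in their direction among members with non-overlapping groups and a window in the table: ABCC9 and ABCC2 on the higher side, ABCB10 and ABCC5 on the lower side (ABCC1, of slightly lower p than these, is named only). Each window runs from 250 bases before to 50 bases after the transcript start in GRCh38.p14, and lies at chr12:21941377-21941676 (minus strand), chr10:99782390-99782689 (plus strand), chr1:229558658-229558957 (minus strand) and chr3:184017835-184018134 (minus strand), in that order. Capitals mark matches, on either strand, to any of 7 motifs searched: AP-1 (TGANTCA), the antioxidant response element (TGACNNNGC), the GC box (GGGCGG), the CCAAT box, E2F (TTTNGCGC), the core of the cAMP response element (TGACGT) and the TATA box (TATAAA); AP-1, the antioxidant element, the CCAAT box and E2F had no match.
ABCC9: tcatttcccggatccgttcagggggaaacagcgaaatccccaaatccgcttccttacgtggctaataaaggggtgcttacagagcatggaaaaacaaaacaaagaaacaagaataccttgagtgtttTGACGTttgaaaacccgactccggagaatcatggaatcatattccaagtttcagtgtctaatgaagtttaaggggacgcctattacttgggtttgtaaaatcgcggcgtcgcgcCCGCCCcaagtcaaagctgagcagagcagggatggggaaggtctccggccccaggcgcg
ABCC2: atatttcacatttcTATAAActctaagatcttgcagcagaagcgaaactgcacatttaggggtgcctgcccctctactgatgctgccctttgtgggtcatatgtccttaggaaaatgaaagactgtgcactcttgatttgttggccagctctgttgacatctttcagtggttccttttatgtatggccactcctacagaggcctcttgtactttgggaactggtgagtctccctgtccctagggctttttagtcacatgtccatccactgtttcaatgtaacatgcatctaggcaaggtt
ABCB10: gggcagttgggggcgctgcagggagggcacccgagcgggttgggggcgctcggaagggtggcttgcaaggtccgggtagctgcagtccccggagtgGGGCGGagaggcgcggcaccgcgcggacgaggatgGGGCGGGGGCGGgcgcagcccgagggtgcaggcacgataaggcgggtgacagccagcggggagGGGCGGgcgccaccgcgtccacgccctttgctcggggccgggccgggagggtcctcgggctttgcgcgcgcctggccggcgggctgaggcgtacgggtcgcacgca
ABCC5: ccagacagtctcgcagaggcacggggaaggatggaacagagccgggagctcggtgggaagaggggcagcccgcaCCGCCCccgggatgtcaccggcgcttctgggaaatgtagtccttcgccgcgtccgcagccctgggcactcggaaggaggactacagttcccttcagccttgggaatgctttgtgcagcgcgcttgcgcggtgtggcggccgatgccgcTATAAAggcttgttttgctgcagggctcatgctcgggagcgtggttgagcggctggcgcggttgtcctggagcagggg

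The windows differed in composition. ABCB10 was 77.3% G and C with 39 CG pairs and 4 GC boxes, and ABCC5 was 65.7% with 26 CG pairs, a GC box and a TATA box whose first base lies at -28 from the transcript start. ABCC9 was 49.7% with 18 CG pairs, a GC box and a cAMP response element core, and ABCC2 was 45% with 1 CG pair, no GC box and a TATA box at -236. Over 35116 windows of the same length the median was 58.7% G and C and 14 CG pairs. A GC box stood in 45% of them, a TATA box in 11.5%, the cAMP core in 7.98%, a CCAAT box in 34.6%, AP-1 in 7.71%, the antioxidant element in 13.3% and E2F in 1.79%. Windows were found for 34 of the 44 members, and a match is a run of letters, not a shown binding site.

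No drug efflux gene passed adjustment over all genes, and 1 of 6 tested (16.7%, against 20.5% of all genes) had an unadjusted p under 0.05. The libraries of all 6 did not overlap, as for 55.8% of all genes, with ABCC2, ABCC10 and ABCC3 higher and ABCC1, ABCC5 and ABCG2 lower with YW-LF. Their median log2 fold change was -0.24, and it was positive in DESeq2 (0.18, 7 members) and without a filter beyond 1 count in all (0.43, 10 members).

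ABCC2 (MRP2, which exports glucuronide and glutathione conjugates across apical membranes; chromosome 10, 99782640 to 99852594) had 6.07 and 13.8 CPM in the YW-LF libraries, against 2.96 and 3.32 CPM in the DMSO libraries. Both treated libraries stood above both controls, with replicate 2 the higher. Its fold was 3.16 (log2 fold change 1.66, SE 0.60; edgeR unadjusted p = 0.029, adjusted p = 0.201; DESeq2 adjusted p = 0.064). ABCC10 (MRP7, which exports taxanes and other drugs) had 20.0 and 28.0 CPM with YW-LF, against 16.4 and 12.7 CPM with DMSO (0.72, SE 0.40, edgeR adjusted p = 0.350). ABCC3 (MRP3, a basolateral exporter of organic anions) differed least, at 35.4 and 42.3 CPM with YW-LF and 33.8 and 35.2 CPM with DMSO, so that YW-LF replicate 1 was barely above the controls.

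ABCC1 (MRP1, the glutathione-dependent exporter of anthracyclines and leukotriene C4; chromosome 16, 15949577 to 16143074) had 57.8 and 70.2 CPM in the YW-LF libraries, against 96.7 and 129 CPM in the DMSO libraries. It was 1.76-fold lower, and here the treated libraries resembled each other (log2 fold change -0.82, SE 0.37, edgeR unadjusted p = 0.064, adjusted p = 0.266). ABCC5 (MRP5, an exporter of cyclic nucleotides and nucleotide analogues; chromosome 3, 183919934 to 184018015) had 54.5 and 18.5 CPM with YW-LF, against 83.8 and 77.7 CPM with DMSO (-1.14, SE 0.54, edgeR adjusted p = 0.288). Most of that difference lay in YW-LF replicate 2. ABCG2 (BCRP, an exporter of many anticancer drugs) was low in every library, at 2.55 and 4.40 CPM with YW-LF and 4.83 and 6.10 CPM with DMSO (-0.66, SE 0.58, edgeR adjusted p = 0.550).

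The multidrug transporter ABCB1 (P-glycoprotein) had 8 and 0 counts in the YW-LF libraries and 0 and 0 in the DMSO libraries. A count of 0 allows up to 3 counts, or 0.080 and 0.090 CPM in the DMSO libraries, for counting error only. ABCC11 (MRP8) had 34 and 8 counts with YW-LF, against 2 and 2 with DMSO, and did not pass the filter of the fit. DESeq2 tested it and did not call it. ABCB5 and ABCC12 had at most 2 counts in any library. Without YW-LF replicate 1, edgeR called ABCC2 (adjusted p = 0.0020), ABCC10 (0.030) and ABCC5 (0.0011), and without YW-LF replicate 2 it called none of the 6; in such a fit the lone treated library is assumed to vary like the DMSO pair. These 3 of 6 stand against 41.7% of all genes called without YW-LF replicate 1, and 20.3% of all genes were called without YW-LF replicate 2, so calls from these fits, here and below, were common over the whole table.

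Levels can be compared between genes after division by exon length. Among the exporters, ABCC1 was the most abundant, at 8.45 ± 1.16 CPM per kb of exon in YW-LF and 14.9 ± 3.01 in DMSO (mean ± SD, n = 2 each, as below). ABCC5 was at 3.19 ± 2.23 in YW-LF and 7.06 ± 0.38 in DMSO, and ABCC3 at 4.04 ± 0.51 in YW-LF and 3.59 ± 0.11 in DMSO. ABCC3 and ABCC5 overlapped in YW-LF, whereas in DMSO the lower ABCC5 library was above both ABCC3 libraries. ABCC2 was at 1.27 ± 0.70 in YW-LF and 0.40 ± 0.032 in DMSO. Over all 10 efflux members the summed level was 20.0 and 21.4 CPM per kb in the YW-LF libraries, against 27.0 and 30.7 in the DMSO libraries. These sums do not overlap, but with 2 libraries against 2 an exact two-sided permutation test cannot give a p below 0.333. Since ABCC1 held the largest single part of each sum, they are not independent of that gene. ABCC5 was also lower, at 4.77 and 1.61 CPM per kb in YW-LF and 7.32 and 6.79 in DMSO, as was ABCG2. ABCC2, ABCC3 and ABCC10 were higher, so the lower sums do not describe every efflux member.

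**Figure D3:**
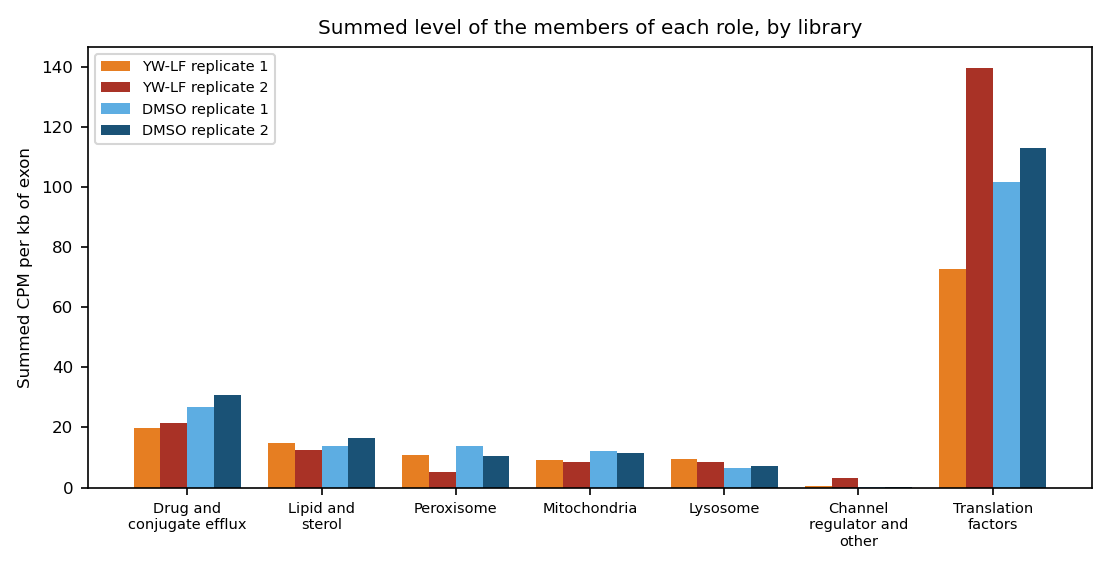
Summed level of the members of each role in CPM per kb of exon, with 1 bar for each library and bars starting at 0. Translation factors take the largest part in every library, and the efflux bars are lower in both YW-LF libraries (20.0 and 21.4) than in both DMSO libraries (27.0 and 30.7). Within the efflux bars ABCC1, ABCC5 and ABCG2 were lower and ABCC2, ABCC3 and ABCC10 higher with YW-LF.

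Lipid and sterol genes overlapped between the groups in 7 of 9 tested members. Their median log2 fold change was -0.03, and its sign was positive with library size as the only scaling (0.052), with a total count of at least 1 (0.0097) and with 10 counts in all libraries (0.035). No member passed adjustment or reached an unadjusted p under 0.05. The drug efflux group thus had 6 of 6 tested members without overlap and the lipid group 2 of 9, against 55.8% of all genes. This difference between the groups was not tested. The 6 include ABCC3, whose YW-LF replicate 1 (35.4 CPM) was barely above DMSO replicate 2 (35.2 CPM). The family's count without overlap also moved with scaling, from 11 to 14 members.

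ABCA2, which handles sterols in late endosomes, was the most even of them, at 62.2 and 67.8 CPM with YW-LF and 63.2 and 69.8 CPM with DMSO; its log2 fold change of -0.03 had the other sign with library size only. ABCA7, a phospholipid transporter linked to Alzheimer's disease, had 10.4 and 13.3 CPM with YW-LF and 9 and 10.8 CPM with DMSO, and ABCA5, a lysosomal sterol transporter, 13.1 and 9.90 CPM with YW-LF and 13.97 and 7.80 CPM with DMSO. In neither did the groups separate.

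ABCA1 (which loads cholesterol and phospholipid onto apolipoprotein A-I; chromosome 9, 104781002 to 104928237) had 2.49 and 6.99 CPM in the YW-LF libraries, against 6.81 and 10.97 CPM in the DMSO libraries. YW-LF replicate 1 lay well below both controls and replicate 2 within them (log2 fold change -0.91, SE 0.65, edgeR adjusted p = 0.463). Without YW-LF replicate 2 edgeR called ABCA1 lower (-1.85, adjusted p = 0.027). ABCA3, which loads surfactant lipids into lamellar bodies in lung, had 53.6 and 24.8 CPM with YW-LF and 43.4 and 56.1 CPM with DMSO. Here it was YW-LF replicate 2 that was low, and without YW-LF replicate 1 ABCA3 was called lower (-1.01, adjusted p = 0.027).

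ABCA13, the longest member, for which a role in lipid transport is known from mice, had 0.20 and 5.37 CPM with YW-LF and 0.37 and 0.36 CPM with DMSO. In counts this was 10 and 166 with YW-LF and 14 and 12 with DMSO, so a single library carried the fold (log2 fold change 2.91, SE 1.40, edgeR adjusted p = 0.290). Leaving out YW-LF replicate 2 gave -0.88, and leaving out YW-LF replicate 1 gave 3.86 (edgeR adjusted p = 9.5e-04). ABCA10, ABCA4 and ABCG4 passed the filter with a mean under 1 CPM. ABCA10 had 29 and 33 counts with YW-LF, against 11 and 4 with DMSO, without overlap in CPM (1.96, SE 0.90, edgeR adjusted p = 0.276), and it shares 318 exon bases with its neighbour ABCA5. ABCG4 had 14 and 0 counts with YW-LF and 12 and 18 with DMSO; without YW-LF replicate 1 it was called lower. ABCA4, the retinal transporter, had 45 and 8 counts with YW-LF and 17 and 32 with DMSO.

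The remaining sterol and bile genes were at or near 0. ABCA8, ABCB11 (the bile salt export pump), ABCG1 (which exports sterols to high-density lipoprotein) and ABCG5 (a plant sterol exporter in liver and gut) had 0 counts in all 4 libraries. ABCG8, the partner of ABCG5, had at most 2 counts in a library, ABCA12 at most 1, ABCA6 at most 6, ABCB4 at most 9 and ABCA9 at most 14.

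ABCC9 had the largest fold change of the tested members. It encodes SUR2, the regulatory subunit of ATP-sensitive potassium channels in heart and vessels, and transports nothing itself (ENSG00000069431, chromosome 12, 21797401 to 21942529). It had 4.02 and 37.6 CPM in the YW-LF libraries, against 0.80 and 1.31 CPM in the DMSO libraries, from 202 and 1160 counts with YW-LF and 30 and 44 with DMSO. Both treated libraries were above both controls, and replicate 2 was far above replicate 1. The log2 fold change was 4.29 (SE 1.08; edgeR unadjusted p = 0.0061, adjusted p = 0.130). The limma-voom test did not call ABCC9 (log2 fold change 3.42, adjusted p = 0.247). Neither did edgeR with DESeq2 size factors (adjusted p = 0.125), upper-quartile scaling (0.145), library size only (0.144) or 10 counts in all libraries (0.118). DESeq2 called it (adjusted p = 1.5e-05), as did edgeR without a count filter (0.0497) and with replicate number added as a block (0.030). It was also called without DMSO replicate 2 (4.68, adjusted p = 0.032), when YW-LF replicate 1 was left out (5.15, 1.5e-04) or YW-LF replicate 2 (1.91, 0.037), but not when DMSO replicate 1 was.

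The pore subunits with which SUR proteins assemble were low. KCNJ8 (Kir6.1), the neighbouring gene on chromosome 12 at 21764955 to 21775581, had 0.70 and 0.49 CPM with YW-LF, against 1.79 and 1.23 CPM with DMSO (log2 fold change -1.34, SE 0.72, edgeR adjusted p = 0.336), and both treated libraries were lower. KCNJ11 (Kir6.2) had 6 and 0 counts with YW-LF and 9 and 4 with DMSO. These pore genes were looked at because of the value of ABCC9. ABCC8 (SUR1), the other regulatory subunit, had 0 counts in every library, which allows up to 3 counts per library. ABCC6, a liver protein whose loss causes mineralisation of soft tissue, had 1.21 and 0.65 CPM with YW-LF and 0.93 and 1.29 CPM with DMSO, and its reads may be shared with near copies of its first exons.

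**Figure D4:**
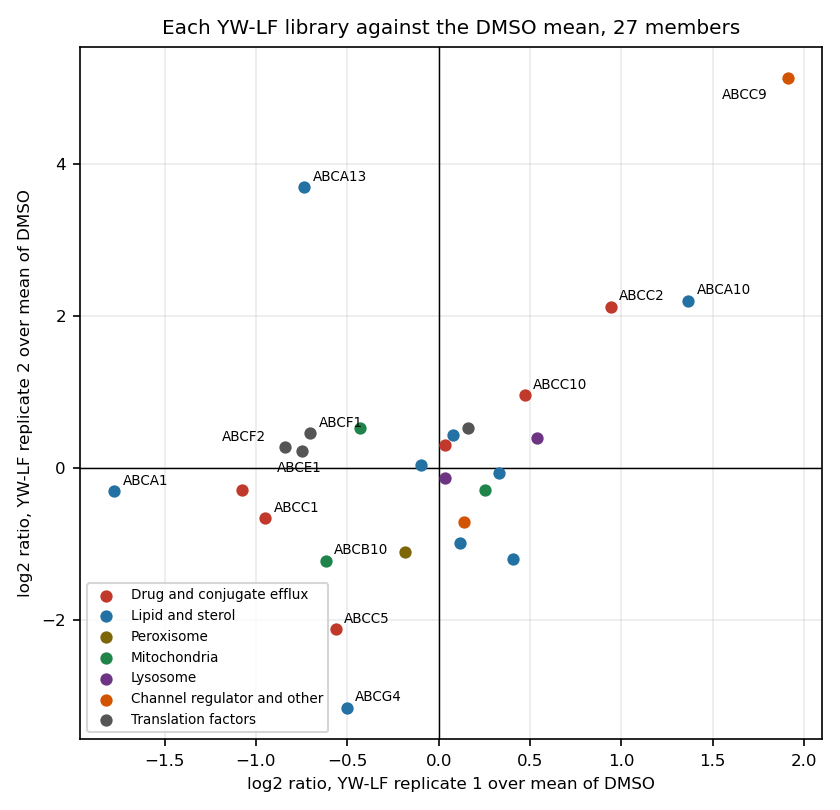
Log2 ratio of each YW-LF library over the mean of the DMSO libraries for 27 tested members, replicate 1 across and replicate 2 up, coloured by role; the axes differ in scale and share the DMSO mean. ABCC9, ABCC2, ABCA10 and ABCC10 lie above 0 on both axes, ABCC5, ABCC1 and ABCB10 below 0 on both, and ABCA13 and the ribosome genes ABCE1, ABCF1 and ABCF2 below 0 in replicate 1 and above 0 in replicate 2.

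Of 4 mitochondrial members, 3 overlapped between the groups and ABCB10 did not (25% without overlap, against 55.8% of all genes). ABCB10, an inner membrane protein needed for heme synthesis (chromosome 1, 229516582 to 229558695), had 18.2 and 11.9 CPM in the YW-LF libraries, against 30.5 and 25.5 CPM in the DMSO libraries. It was 1.86-fold lower without overlap (log2 fold change -0.90, SE 0.41, edgeR unadjusted p = 0.065, adjusted p = 0.269), and was called without YW-LF replicate 1 (-1.24, adjusted p = 0.012). ABCB8, part of a potassium channel complex of the inner membrane, had 10.8 and 21.0 CPM with YW-LF and 13.99 and 15.3 CPM with DMSO. ABCB6, a porphyrin transporter, had 7.004 and 4.79 CPM with YW-LF and 5.55 and 6.19 CPM with DMSO. The log2 fold change of ABCB6 (0.0078) was near 0, and its sign turned with upper-quartile scaling. ABCB6 shares 2864 of its 5234 exon bases with AC068946.2 on the same strand, a gene absent from the count table, so its level is uncertain.

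In peroxisomes, ABCD3 (PMP70), a major membrane protein that imports fatty acyl-CoA, had 62.3 and 32.8 CPM with YW-LF and 87.6 and 57.3 CPM with DMSO (log2 fold change -0.61, SE 0.45, edgeR adjusted p = 0.480). YW-LF replicate 1 lay between the controls and replicate 2 below both; without YW-LF replicate 1 edgeR called ABCD3 lower (-1.15, adjusted p = 0.027). ABCD2 had 12 counts in DMSO replicate 1 and 0 in the other libraries.

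Of the lysosomal members, ABCD4, which helps cobalamin out of lysosomes (chromosome 14, 74285423 to 74303056), had 68.9 and 61.9 CPM with YW-LF, against 45.2 and 49.6 CPM with DMSO. The groups did not overlap and each was narrow, but the log2 fold change of 0.46 (SE 0.34) had an edgeR adjusted p of 0.470. ABCB9, a lysosomal peptide transporter, had 20.4 and 18.1 CPM with YW-LF and 19.7 and 19.99 CPM with DMSO. It shares 1656 exon bases with OGFOD2 and 1590 with ARL6IP4 on the opposite strand, and no source used here states that counting used the strand, so its level is uncertain; its log2 fold change of -0.05 turned positive with library size as the only scaling.

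The translation factors were the most abundant members and split the treated libraries. ABCE1, which separates ribosomal subunits after termination, had 73.6 and 144 CPM with YW-LF and 121 and 127 CPM with DMSO. ABCF1, a factor of translation initiation, had 124 and 277 CPM with YW-LF and 179 and 228 CPM with DMSO, and ABCF2, named for its cassette, 58.9 and 128 CPM with YW-LF and 107 and 105 CPM with DMSO. In all 3 genes YW-LF replicate 1 was below both controls and YW-LF replicate 2 above both. Their log2 fold changes lay between -0.19 and -0.02, and each turned positive without YW-LF replicate 1 (0.21, 0.44 and 0.27 in that order). ABCF3, related to a yeast activator of the kinase Gcn2, had 101 and 129 CPM with YW-LF, against 90.4 and 89.6 CPM with DMSO (0.35, SE 0.36, edgeR adjusted p = 0.603), with both treated libraries higher. Per kb of exon, ABCF1 stood at 44.4 ± 23.9 in YW-LF and 45.0 ± 7.60 in DMSO, about the same mean with a wider spread under treatment. In DMSO the order was ABCF1, ABCF2, ABCE1, ABCF3 and ABCC1, and ABCF2 at 25.3 ± 0.40 and ABCE1 at 19.8 ± 0.75 did not overlap, while ABCF3, at 17.4 and 17.2, lay just above the higher ABCC1 library at 17.02. In YW-LF, ABCF1 at 27.4 and 61.3 overlapped ABCF2 (14.1 and 30.6) but lay above ABCF3 (19.3 and 24.8) and ABCE1 (11.8 and 23.0), and these last 3 overlapped one another. ABCE1 shares 469 exon bases with ANAPC10 and 276 with OTUD4 on the opposite strand. ABCF2 shares 1914 of its 4177 exon bases with AC021097.2 on the same strand, a gene absent from the count table, so its level is uncertain.

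Genes that work beside the transporters were counted from 9 lists, of which 151 genes were tested and none passed adjustment over all genes. An unadjusted p under 0.05 was found for 26 of them, or 17.2%, against 20.5% of all genes (11.5% higher, 9.01% lower). Counts without overlap in the lists below stand against 55.8% of all genes (28% higher, 27.8% lower). TAP1 and TAP2, the ABC proteins that carry peptides into the endoplasmic reticulum for MHC class I, lay on opposite sides of DMSO. TAP1 had 73.3 and 43.1 CPM with YW-LF, against 34.5 and 32.7 CPM with DMSO, and TAP2 had 76.6 and 106 CPM with YW-LF, against 131 and 127 CPM with DMSO.

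Of 10 tested receptors and factors that control efflux genes, 6 were higher without overlap and 1 lower (70%, against 55.8% of all genes), and 2 had an unadjusted p under 0.05 (20%, against 20.5%). NFE2L2 (NRF2, the oxidative stress factor that induces several ABCC genes) had 198 and 203 CPM with YW-LF, against 97.9 and 98.1 CPM with DMSO (log2 fold change 1.03, SE 0.35, edgeR adjusted p = 0.190). The replicates of each group were close. NR3C1 (the glucocorticoid receptor) had 218 and 465 CPM with YW-LF, against 103 and 86.6 CPM with DMSO (1.85, SE 0.50, adjusted p = 0.138; DESeq2 adjusted p = 0.0069), and AHR (the aryl hydrocarbon receptor) 304 and 537 CPM with YW-LF, against 187 and 232 CPM with DMSO. The drug sensor NR1I2 (PXR) was not above 0.060 CPM in any library.

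In the list of cholesterol efflux and LXR genes, 9 of 19 tested were higher without overlap and 7 lower (84.2%, against 55.8% of all genes), with 4 higher and 1 lower at an unadjusted p under 0.05 (26.3%, against 20.5%). Their median log2 fold change was -0.02. NR1H2 (LXR-beta) had 77.5 and 167 CPM with YW-LF, against 55.7 and 43.1 CPM with DMSO, while NR1H3 (LXR-alpha, which like NR1H2 can induce ABCA1) had 5.37 and 5.54 CPM with YW-LF, against 6.89 and 7.71 CPM with DMSO. CH25H, which makes the oxysterol 25-hydroxycholesterol, had 8.82 and 31.0 CPM with YW-LF, against 1.23 and 2.06 CPM with DMSO (3.60, SE 0.74, edgeR adjusted p = 0.121; DESeq2 adjusted p = 1.2e-05). RXRB, the partner receptor of LXR, had 76.2 and 79.4 CPM with YW-LF, against 38.7 and 35.5 CPM with DMSO.

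Carriers of drugs and organic ions were higher without overlap in 3 of 16 tested and lower in 9 (75%, against 55.8% of all genes). Before adjustment, 3 each way had an edgeR p under 0.05 (37.5%, against 20.5%). The median log2 fold change of the 16 carriers was -0.80. SLC22A18, a putative organic cation carrier and 1 of the 3 higher, had 30.2 and 12.5 CPM with YW-LF, against 4.65 and 3.74 CPM with DMSO (2.35, SE 0.56, edgeR adjusted p = 0.124). SLCO4C1, 1 of the 9 lower, had 4.02 and 1.33 CPM with YW-LF, against 13.6 and 20.95 CPM with DMSO (-2.68, SE 0.66, edgeR adjusted p = 0.128; DESeq2 adjusted p = 9.3e-04). Of 17 glutathione genes 5 were higher without overlap and 2 lower (41.2%, against 55.8% of all genes). Those of lowest p were GSTO1, an omega-class glutathione transferase (141 and 222 CPM with YW-LF, against 72.4 and 65.6 CPM with DMSO), and MGST3, a microsomal one (89.3 and 161 CPM with YW-LF, against 62.3 and 58.1 CPM with DMSO).

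The lists around the organelle and ribosome members had shares without overlap near or under the 55.8% of all genes. Of 31 iron-sulfur and heme genes 11 were higher without overlap and 6 lower (54.8%). FDX2, a mitochondrial ferredoxin, had 19.3 and 26.8 CPM with YW-LF, against 9.08 and 8.49 CPM with DMSO. Of 27 peroxisome genes 12 were higher without overlap and 4 lower (59.3%). Those of lowest p were ACAA1 (a thiolase of peroxisomal fatty acid oxidation), at 36.6 and 50.2 CPM with YW-LF and 14.9 and 13.99 CPM with DMSO, and PEX16 (a membrane biogenesis factor), at 19.5 and 44.9 CPM with YW-LF and 7.34 and 12.1 CPM with DMSO. Of 10 cobalamin genes 4 were higher without overlap and 1 lower (50%). MMAA had 7.90 and 16.9 CPM with YW-LF, against 3.34 and 4.01 CPM with DMSO, and MMACHC, which processes cobalamin in the cytosol, had 7.10 and 7.38 CPM with YW-LF, against 16.2 and 26.96 CPM with DMSO. Of 19 ribosome rescue genes 5 were higher without overlap and 3 lower (42.1%). Those of lowest p were EIF1, an initiation factor (896 and 932 CPM with YW-LF, against 332 and 435 CPM with DMSO), and LTN1, a ligase for stalled nascent chains (62.2 and 89.5 CPM with YW-LF, against 44.1 and 25.1 CPM with DMSO). The count of 26 list genes fell without either DMSO library and rose without either YW-LF library. The share of all genes at the same line moved the same way, so these moves were not particular to the lists.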

How the data were processed

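The values the authors deposited are unnormalized counts of reads for each gene (whole numbers with differing library totals). No aligner, counter or annotation is named in the sources used here. Per the submitters' processing notes the builds were GRCm38 and mm10, whereas the row identifiers are human Ensembl genes, so counts were used by identifier, and coordinates and exon lengths come from GENCODE 29 (GRCh38). Symbols matched 20148 of 20263 identifiers. The 2 further columns of per-sample values match no label and were not used. A second table held the same DMSO counts (40526 of 40526 values equal).

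EdgeR 4.0.16 in R 4.3.3 fitted YW-LF against DMSO over all 4 libraries: filterByExpr, TMM scaling, the quasi-likelihood F-test without covariates, and Benjamini-Hochberg adjustment over 13816 genes at 0.05. The SE is the log2 fold change over the square root of F. CPM were scaled by TMM, with a prior count of 2 on the log2 scale. Levels between genes are CPM per kb of all annotated exon. The test was first tested on simulated data. Alternatives were DESeq2 1.42.0, limma-voom (limma 3.58.1), other scalings and filters, a replicate block and leaving out each library; removal of the 13 mitochondrially encoded genes was added after seeing the data. Members with a mean of at least 1 CPM are given by library, others by counts. From each gene list the 2 members of lowest p were named, together with NFE2L2, AHR, NR1H2, NR1H3, TAP1 and TAP2; other named genes were picked with their values in view. The members, roles and lists were chosen with earlier results of these data known. Some members of the family and some genes of the naming rule are not reported here by name, though those in the count table stay in the fits, counts and sums.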

Additional observations from a re-analysis of the deposited data

How the results depend on the processing

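Of 24 members described by library, 13 kept their sign under all 13 alternatives. Outside the fits that left out a library, signs turned for ABCB6 (-0.0033 with upper-quartile scaling, -0.0069 with a total count of at least 1, -0.016 with the replicate block) and, with library size only, for ABCA2 (0.052) and ABCB9 (0.060). In fits without 1 library, signs turned for these 3 and 8 others, with ranges of -0.88 to 3.86 for ABCA13, -0.107 to 0.028 for ABCA2, -1.01 to 0.096 for ABCA3, -0.29 to 0.58 for ABCA5, -0.30 to 0.24 for ABCB6, -0.45 to 0.52 for ABCB8, -0.14 to 0.026 for ABCB9, -0.78 to 0.12 for ABCC6, -0.76 to 0.21 for ABCE1, -0.73 to 0.44 for ABCF1 and -0.86 to 0.27 for ABCF2.

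Genes called over all genes numbered 275 (155 higher, 120 lower) with a total count of at least 1, 1464 (841 higher, 623 lower) in DESeq2, 331 (186 higher, 145 lower) with the replicate block, and 64 to 5882 without 1 library; the other settings gave 0. Of family members, only ABCC9 was called with a total count of at least 1 (1 of 39), in DESeq2 (1 of 30) and with the replicate block (1 of 29). These stand against 1.64%, 10.3% and 2.4% of all genes in that order. Members at an unadjusted p under 0.05 numbered 4 of 39 with a total count of at least 1, against 19.1% of all genes. In DESeq2 they numbered 4 of 30, against 23.4% of all genes. Members without overlap numbered 16 to 26 of the 30 or 31 tested without 1 library, where a single library makes up a group. The share of all genes without overlap is given for the full fit only. These counts therefore have no background and cannot show whether the family differed from other genes. The drug efflux median was 0.43 with a total count of at least 1 (10 members), 0.18 in DESeq2 (7 members) and -0.011 to 0.19 without 1 library. List genes at an unadjusted p under 0.05 numbered 5 to 74 without 1 library. With library size only, all genes at an unadjusted p under 0.05 were 1489 higher and 755 lower, against 1585 higher and 1245 lower with TMM scaling. The cause of these moves was not tested. Replicate numbers stand for no batch or day in the labels. Same-numbered libraries had a correlation of deviations of 0.037 across genes. With 2 libraries per group, this single value cannot settle whether the numbers pair the libraries. Under the replicate block 3 of 29 members had an unadjusted p under 0.05, against 19.5% of all genes, and ABCC9 stood at 3.60. Depth limits the members with few counts: 3 counts equal 0.060 to 0.097 CPM.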

Other observations

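Genes around ABCC9 on chromosome 12 had smaller fold changes than ABCC9. They were chosen by position after the value of ABCC9 was seen. LDHB, a lactate dehydrogenase subunit beyond KCNJ8, had 393 and 848 CPM with YW-LF and 515 and 361 CPM with DMSO, and CMAS, an enzyme of sialic acid activation on the other side, had 84.5 and 59.6 CPM with YW-LF, against 51.6 and 41.3 CPM with DMSO (log2 fold change 0.63, SE 0.37, edgeR adjusted p = 0.371). PYROXD1, an oxidoreductase gene farther along, had 29.6 and 37.1 CPM with YW-LF, against 7.24 and 11.6 CPM with DMSO (1.82, SE 0.43, edgeR adjusted p = 0.122, DESeq2 adjusted p = 0.0077), with both treated libraries higher. GOLT1B had 68.1 and 59.1 CPM with YW-LF, against 36.2 and 30.2 CPM with DMSO. RECQL, which lies between them, had 115 and 56.8 CPM with YW-LF and 77.7 and 55.9 CPM with DMSO, and ST8SIA1 and GYS2 had at most 1.36 and 0.72 CPM in any library, in that order. C2CD5 was lower, at 46.6 and 33.1 CPM with YW-LF, against 73.6 and 53.7 CPM with DMSO (log2 fold change -0.67, SE 0.38, edgeR adjusted p = 0.355). ETNK1 had 77.0 and 72.1 CPM with YW-LF, against 65.2 and 44.4 CPM with DMSO. Groups without overlap near ABCC9 stand against 55.8% of all genes.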
